A study of Mus musculus with 2 samples.

Results

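Cassette exons are internal exons that some transcripts of a gene hold and others splice out. They were taken here from the annotated transcripts of protein-coding genes in GENCODE M21, as exons that at least 1 annotated transcript of the gene holds and another, extending past both of its ends, skips. Members were chosen by annotation, by a length of at least 21 nt and by read depth: at least 20 reads in each library had to lie on multi-exon transcript models of the gene that began before the exon and ended after it (spanning reads). Of 26381 annotated cassette exons in 9550 genes, 5959 exons in 2040 genes passed, or 22.6%. Another 11567 exons lay in genes with reads in both libraries but fell under 20 spanning reads in at least 1 of them. Inclusion was the share of spanning reads whose model held the exon with both annotated ends exactly. The read depth that chose the members is part of this measure, so the counts of members describe what these libraries could show and not how many cassette exons the muscle uses.

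The tissue was gastrocnemius, a calf muscle made mostly of fast fibres, from female B6CASTF1/J mice aged 18 to 20 months, an F1 hybrid of C57BL/6J and CAST/EiJ. The series held 2 long-read RNA libraries, labelled biological replicates 1 and 2 of the same group, each made from 2 µg of RNA, with no treatment and no other age, sex or tissue. Both labels carry the same donor record and leave the number of animals behind a library unstated, so every p-value below compares these libraries and may in part be technical. Replicate 1 held 1175829 reads and replicate 2 held 1017384, of which 1042422 and 920167 lay on multi-exon models of endogenous genes.

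Both libraries carried the markers of skeletal muscle. Acta1, the skeletal alpha-actin, held 66373 and 50333 reads, and Ckm, the muscle creatine kinase, held 68798 and 53678. The heart markers Myh6, Nppa and Actc1 held 0 to 15 reads per library, the liver markers Alb and Apoa1 held 0, the neuronal markers Snap25 and Syt1 held at most 1, and the blood markers Hba-a1 and Hbb-bs held 34 to 116. The libraries differed in their slow fibre myosin. Myh7, the slow myosin heavy chain, made up 0.786% of the reads of the 4 adult myosin heavy chains in replicate 1 and 5.65% in replicate 2, and Myh4, the fastest, made up 91.2% and 72.4%. Reads on models that match only part of an annotated transcript were 11.3% and 11.0% of endogenous reads, and reads on models with an unannotated splice site were 17.9% and 21.5%. In bulk tissue, fewer fibres of a type and less RNA per fibre cannot be told apart.

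Splicing removes a cassette exon when its splice sites are passed over and the flanking exons are joined. Skeletal muscle is known as a tissue with much regulated splicing, in which contractile, calcium-handling and membrane genes switch exons between fetal and adult life under factors such as the MBNL, CELF and RBFOX proteins. Exons whose length is a multiple of 3 can be added or removed without moving the reading frame, whereas others shift it and can expose the transcript to nonsense-mediated decay. Some cassette exons come as neighbours of which a transcript holds only 1, usually called mutually exclusive exons.

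The sequences below show the exons on which the results turn. They are the reference (C57BL/6J) sequence of GENCODE M21 transcripts on mm10, written 5′ to 3′ on the strand of the gene; the CAST/EiJ allele was not used here. The first set holds neighbouring exons of equal length of which nearly every read held 1, and capitals mark bases that are the same at the same position in both exons of a pair.
Tnnt3 upstream exon, chr7:142513665-142513705, plus strand: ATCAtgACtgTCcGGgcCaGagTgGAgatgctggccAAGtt
Tnnt3 downstream exon, chr7:142514326-142514366, plus strand: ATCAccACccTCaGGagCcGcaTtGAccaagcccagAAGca
Mapk9 upstream exon, chr11:49873836-49873907, plus strand: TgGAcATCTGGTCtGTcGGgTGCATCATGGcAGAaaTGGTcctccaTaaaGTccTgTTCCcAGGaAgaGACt
Mapk9 downstream exon, chr11:49874264-49874335, plus strand: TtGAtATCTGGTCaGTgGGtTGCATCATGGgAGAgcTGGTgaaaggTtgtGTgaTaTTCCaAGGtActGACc
P4ha1 upstream exon, chr10:59354340-59354410, plus strand: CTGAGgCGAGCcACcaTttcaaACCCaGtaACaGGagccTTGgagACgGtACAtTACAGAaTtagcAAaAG
P4ha1 downstream exon, chr10:59355350-59355420, plus strand: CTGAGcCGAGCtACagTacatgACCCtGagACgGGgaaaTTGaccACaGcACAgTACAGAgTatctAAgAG
Acp1 upstream exon, chr12:30904870-30904983, minus strand: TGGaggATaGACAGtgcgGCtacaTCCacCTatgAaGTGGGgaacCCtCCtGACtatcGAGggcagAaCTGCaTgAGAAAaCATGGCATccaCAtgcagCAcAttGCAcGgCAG
Acp1 downstream exon, chr12:30904718-30904831, minus strand: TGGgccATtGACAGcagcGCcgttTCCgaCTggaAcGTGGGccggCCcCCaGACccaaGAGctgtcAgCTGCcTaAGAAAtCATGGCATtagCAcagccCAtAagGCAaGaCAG
Pkm upstream exon, chr9:59675029-59675195, plus strand: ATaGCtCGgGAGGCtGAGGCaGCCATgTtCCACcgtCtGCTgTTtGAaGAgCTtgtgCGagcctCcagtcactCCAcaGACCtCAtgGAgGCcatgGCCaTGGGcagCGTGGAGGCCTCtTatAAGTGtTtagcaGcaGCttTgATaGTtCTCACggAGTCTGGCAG
Pkm downstream exon, chr9:59675568-59675734, plus strand: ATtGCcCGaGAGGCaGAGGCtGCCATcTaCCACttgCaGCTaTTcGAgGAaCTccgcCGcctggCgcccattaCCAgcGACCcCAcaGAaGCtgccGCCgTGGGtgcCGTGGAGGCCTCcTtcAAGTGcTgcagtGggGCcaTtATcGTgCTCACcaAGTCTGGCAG

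The second set holds cassette exons included in part of the reads, with the exon in capitals and, in lower case, the last 20 bases of the exon before it and the first 20 bases of the exon after it in an annotated transcript. They are shown because their inclusion was intermediate, was measured on many reads or differed between the libraries. For Mybpc1 the exon alone is given.
Dctn1, chr6:83187764-83187784, plus strand: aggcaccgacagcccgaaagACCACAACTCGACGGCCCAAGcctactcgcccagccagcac
Mef2d, chr3:88161781-88161801, plus strand: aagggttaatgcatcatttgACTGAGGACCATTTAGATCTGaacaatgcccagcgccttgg
Smyd1, chr6:71235343-71235381, minus strand: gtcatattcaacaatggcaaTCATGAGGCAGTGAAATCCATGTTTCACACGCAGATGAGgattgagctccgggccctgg
Arfgap2, chr2:91269070-91269111, plus strand: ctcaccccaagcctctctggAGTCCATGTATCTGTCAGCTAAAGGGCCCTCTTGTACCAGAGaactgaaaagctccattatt
Camk2d, chr3:126808208-126808249, plus strand: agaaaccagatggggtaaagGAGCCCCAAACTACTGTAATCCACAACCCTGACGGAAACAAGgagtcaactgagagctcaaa
Gnas, chr2:174336747-174336791, plus strand: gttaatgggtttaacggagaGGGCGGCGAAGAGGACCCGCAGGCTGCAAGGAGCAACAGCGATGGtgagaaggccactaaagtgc
Mybpc1, chr10:88521277-88521335, minus strand: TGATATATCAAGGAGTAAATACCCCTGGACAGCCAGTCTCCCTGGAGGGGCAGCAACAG
Usp47, chr7:112080172-112080231, plus strand: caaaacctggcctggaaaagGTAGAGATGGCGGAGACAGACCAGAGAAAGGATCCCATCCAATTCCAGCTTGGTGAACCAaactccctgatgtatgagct
Neb, chr2:52157832-52157924, minus strand: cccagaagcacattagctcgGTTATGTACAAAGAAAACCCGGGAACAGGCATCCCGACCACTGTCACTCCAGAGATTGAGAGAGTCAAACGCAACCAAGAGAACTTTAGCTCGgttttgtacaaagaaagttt
Nrap, chr19:56374364-56374468, minus strand: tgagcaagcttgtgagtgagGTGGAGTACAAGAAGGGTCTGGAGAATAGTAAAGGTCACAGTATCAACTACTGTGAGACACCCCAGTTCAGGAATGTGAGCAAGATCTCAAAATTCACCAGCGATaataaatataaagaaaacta

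Of the cassette exons measured here, most were held exactly by nearly all or nearly none of the reads. Of the 5959 members, 3186 (53.5%) were included in 90% or more of the spanning reads as the mean of both libraries, 1864 (31.3%) in 10% or less, and 909 (15.3%) in 575 genes lay between. The 909 are called intermediate below, and the others high and low. Median inclusion was 93.75% in replicate 1 and 93.94% in replicate 2. In 1272 exons every spanning read of both libraries held the exon, and in 1109 none did. For comparison, 30181 internal exons of protein-coding genes that no annotated transcript skips, called constitutive here, passed the same depth; 87.3% of them were high and 8.83% low. The members just inside the depth threshold, with 20 to 21 reads in the shallower library, had a median inclusion of 91.69% over 350 exons, and the exons just outside it, with 18 to 19 reads, had 93.77% over 305.

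**Figure D1:**
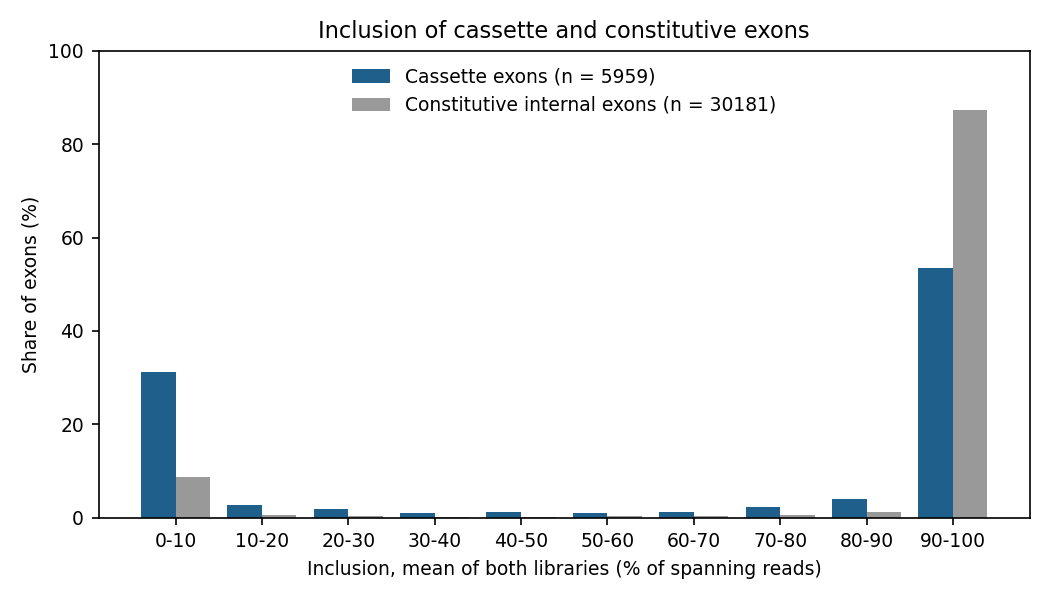
Share of exons (vertical axis, %) in each 10-point range of inclusion (horizontal axis, mean of both libraries) for cassette exons (blue) and constitutive internal exons (grey). Cassette exons pile up at both ends, with 53.5% at 90% or more and 31.3% at 10% or less, while 87.3% of constitutive exons lie at 90% or more.

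Members were spread unevenly over genes and overlap each other in places. A single member was found in 783 genes, and 339 genes had 5 or more. Eif4g1, a scaffold of translation initiation, had the most with 36, followed by Nsmaf with 29 and Smarcc2 with 26. Annotated versions of an exon that differ at 1 end count as separate members, so 1200 of the members share bases with another in 531 groups, the largest of 9. Reads that hold one version count as not holding the others. Members of the same gene also share reads and are not independent of each other.

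In the intermediate and low classes, reads without the exact exon had mostly skipped it cleanly. Reads were pooled over the exons of a class. In the intermediate class, 50.9% of spanning reads held the exact exon and 40.8% skipped it cleanly in replicate 1. In replicate 2 these shares were 52.3% and 39.5%. Reads in which the exon lay inside a longer exon, such as a retained intron or another version, made up 4.36% and 3.70%, and reads with both ends within 5 nt but not exact made up 2.07% and 2.19%. Constitutive exons differed in these pooled shares. Of their reads without the exact exon, 2.03% and 2.25% were clean skips, and 48.9% and 49.4% lay inside a longer exon. The commonest form among such reads was also counted by exon over both libraries, with ties going to the clean skip. It was a clean skip in 3070 constitutive exons, a longer exon in 7230, ends within 5 nt in 2677 and another overlap in 3177. Among all members, clean skips were 81.6% and 79.1% of the reads without the exact exon. In the high class they were 35.4% and 43.0% of those reads, and 47.3% and 35.8% lay inside a longer exon. These shares pool reads, so the deepest exons weigh most. Counted by exon in the same way as above, the commonest form in the high class was a clean skip in 887 exons and a longer exon in 632. It was ends within 5 nt in 225 and another overlap in 170. The lack of annotated skips that defined the constitutive set bears on its contrast with the members, which is therefore a description.

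**Figure D2:**
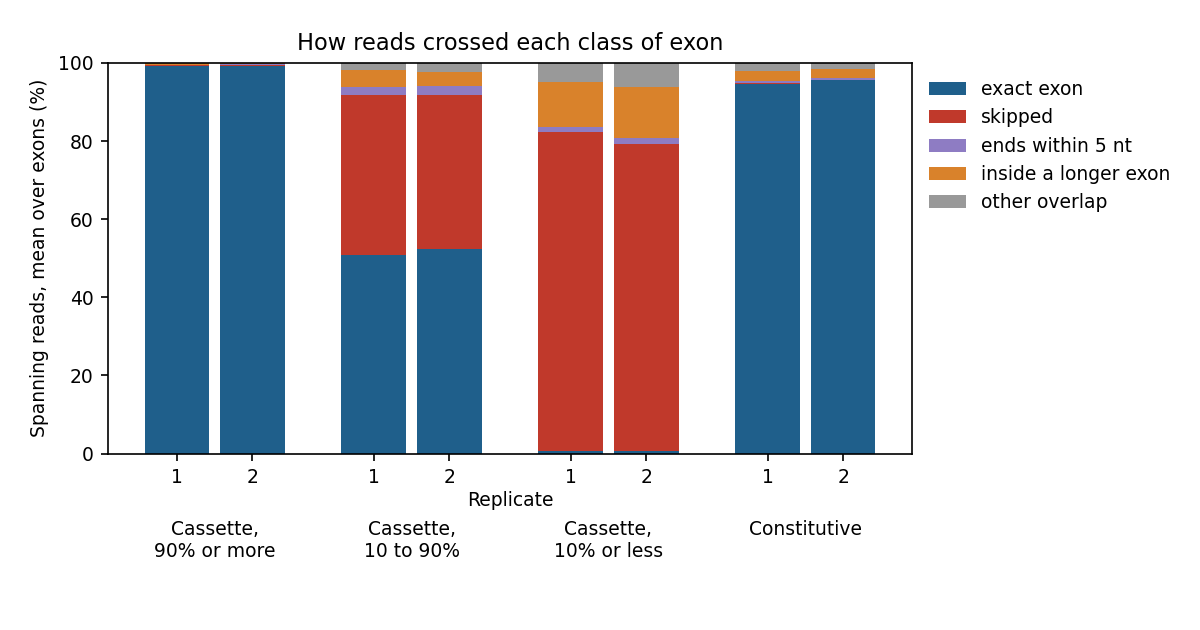
Share of spanning reads (vertical axis, %), pooled over the exons of a class, that held the exact exon, skipped it, had both ends within 5 nt, lay inside a longer exon or overlapped it otherwise, for the 3 classes of cassette exon and for constitutive exons in replicates 1 and 2. The axis title calls this pooled share a mean over exons. The intermediate class is split between exact exons (50.9% and 52.3%) and clean skips (40.8% and 39.5%).

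Intermediate exons were the class that most often kept the reading frame. Among exons that were coding in every annotated transcript holding them, 72.5% of 421 intermediate exons had a length divisible by 3, against 44.6% of 1301 high exons, 51.6% of 494 low exons and 39.4% of 14095 constitutive exons. For the 320 intermediate coding exons whose reads without the exon were mostly clean skips, the share was 80.9%. Intermediate exons were also shorter, with a median of 95 nt against 109 nt for high, 103 nt for low and 120 nt for constitutive exons, and 20.4% of them were under 60 nt against 7.58% of constitutive exons. Base composition was similar, with a median GC content of 51.2% in intermediate and 51.3% in constitutive exons. The last 2 bases of the exon were AG in 50.2% of intermediate, 56.3% of high and 55.7% of constitutive exons. The exons share genes and annotation, so these shares are given without a test.

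How the annotation describes the transcripts went with inclusion. Of 1016 members held by no transcript annotated as protein coding, 948 (93.3%) were low, and their median inclusion was 0%. Of 1491 members held by a protein-coding transcript and skipped by none, 88.3% were high. The 3452 members with a protein-coding transcript on each side held 734 of the intermediate exons and had a median of 93.73%. Exons whose holders are all annotated as targets of nonsense-mediated decay numbered 524, of which 487 were low and 34 intermediate. Such transcripts are known to be removed after splicing, so these values are levels at steady state and not rates of splicing.

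Of these decay-only exons, the intermediate ones with the most reads were in E2f6 and Thap12, genes named after their values were seen. The 66-nt exon of E2f6, a transcriptional repressor, was held by 125 of 166 spanning reads (75.3%) in replicate 1 and 129 of 171 (75.4%) in replicate 2. In Thap12 the 95-nt exon was held by 33 of 124 (26.6%) and 33 of 160 (20.6%). By contrast, the 456-nt exon of Srsf3, a splicing factor known to control its own level through an exon with early stop codons, was held by 0 of 36 and 1 of 22 reads. The count of 0 allows up to 8.33%, so the depth there sets a weak limit.

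Very short exons were the least included. The 133 members of 21 to 30 nt had a median inclusion of 2.50%, with 73 low, 29 intermediate and 31 high, and the 729 members of 31 to 59 nt had a median of 71.7%. Constitutive exons of 21 to 30 nt give the background of the method for such lengths: over 175 of them the median was 98.2%, but 43 (24.6%) were low, against 8.71% of the 27892 constitutive exons of 60 nt or more. The part that the alignment of short exons has in these values was not tested. Intermediate short exons with many reads included a 24-nt exon of Rilpl1, held by 246 of 308 (79.9%) and 184 of 245 (75.1%) reads, a 22-nt exon of Car14, a carbonic anhydrase, held by 66 of 310 (21.3%) and 23 of 109 (21.1%), and the 21-nt exon of Mef2d printed above, held by 92 of 101 (91.1%) and 86 of 103 (83.5%). Rilpl1, Car14 and Mef2d were picked after the values were seen, and intermediate exons of 21 to 30 nt in Myl1, Dctn1 and Mapk12 had more spanning reads in the shallower library than the Car14 and Mef2d exons.

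The exons with the most reads gave precise examples of the high and low classes. In Pkm, the pyruvate kinase of muscle, the upstream 167-nt exon printed above defines the M1 form and the downstream one the M2 form. The upstream exon was held by 4626 of 4658 spanning reads (99.3%; 95% Wilson interval 99.0 to 99.5) in replicate 1 and 3964 of 3985 (99.5%; 99.2 to 99.7) in replicate 2. For the downstream exon the counts were 25 of 4689 (0.533%) and 12 of 4004 (0.300%). The exons share 103 of 167 bases at the same positions (61.7%). Nearly all Pkm reads were of the M1 kind in both libraries.

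Among contractile and calcium genes the same held. The 42-nt exon of Atp2a1, the fast calcium pump of the sarcoplasmic reticulum, an exon that neonatal muscle is known to leave out, was held by 168242 of 168749 reads (99.7%) and 185624 of 186325 (99.6%). In Tpm1, an alpha-tropomyosin, neighbouring 76-nt exons were held by 24915 of 24921 reads (99.98%) and by 3 of 24921 (0.0120%) in replicate 1, and by 13310 of 13315 (99.96%) and 0 of 13315 in replicate 2, where a count of 0 allows up to 0.0225%. The 57-nt exon of Cacna1s, the voltage sensor of excitation-contraction coupling, was held by 589 of 592 (99.5%) and 1049 of 1057 (99.2%). The 101-nt exon of Casq1, a calcium buffer of the sarcoplasmic reticulum, stood at 99.95% and 99.94%. Acta1 has a 90-nt annotated exon in the 5′ untranslated region that only 456 of 62816 reads (0.726%) and 312 of 47857 (0.652%) held. All of these were alike in both libraries within 1 percentage point.

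A low value can come from a choice between versions, as in Ldha, or from skipping, as in Ybx3 and Aldoa. The 148-nt exon of Ldha, the muscle-type lactate dehydrogenase subunit, was held exactly by 0 of 7889 and 0 of 7209 reads, which allows up to 0.0380% and 0.0416%. In 7888 and all 7209 of these reads the exon lay inside a longer exon. The 57-nt exon of Ybx3, a cold-shock RNA-binding protein, was held by 0 of 3587 and 0 of 2030 reads, and here nearly every read skipped it. The 153-nt exon of Aldoa, the muscle aldolase, was held by 88 of 16754 (0.525%) and 51 of 8944 (0.570%), and 16658 and 8888 reads skipped it cleanly. The small share that held it depended on the reads counted: without reads on models that match only part of a transcript, replicate 1 stood 7.12 points above replicate 2.

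The intermediate exons with the most reads were alike in both libraries for most genes. Gnas, the stimulatory G protein alpha subunit, has a 45-nt exon that separates its long and short forms; it was held by 400 of 965 reads (41.5%; Wilson interval 38.4 to 44.6) and 319 of 744 (42.9%; 39.4 to 46.5). The 60-nt exon of Usp47, a deubiquitinating enzyme, was held by 251 of 460 (54.6%) and 429 of 818 (52.4%). The 207-nt exon of Ybx3 was held by 507 of 3587 (14.1%) and 334 of 2030 (16.5%). Each of these values lay within 3 points of the other library.

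Among the other deep exons of this class, Slc16a3, the lactate exporter MCT4, had a 95-nt exon in its untranslated part at 89.1% of 984 and 89.6% of 654 reads. The 193-nt exon of Ctbp1, a transcriptional corepressor, stood at 81.4% of 510 and 80.4% of 453. A 104-nt exon of Ndufs1, a subunit of respiratory complex I, stood at 8.57% of 455 and 11.7% of 618. Pde4dip, or myomegalin, had a 153-nt exon at 48.3% of 903 and 46.0% of 1441 reads, but 402 and 673 of the remaining reads held another version that overlaps it, so this is mostly a choice of ends. The 411-nt exon of Fastk, at 86.1% of 533 and 85.8% of 492 reads, had 0 clean skips in either library, and 54 and 47 reads held it inside a longer exon. None of these differed by over 4 points.

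Lists of genes by role, chosen with earlier results of these data known, differed in the share of their members that were intermediate. The share of intermediate members was 15.3% over all 5959 members. It was 36.2% of 69 members for the cytoskeleton, adhesion and dystrophin complex list, 32.7% of 107 for membrane shaping, trafficking and repair, 31.1% of 74 for transcription and chromatin, and 26.5% of 49 for calcium and excitation-contraction coupling. Sarcomere and Z-disc genes had 21.2% of 99 members, RNA-binding and splicing factors 24.8% of 121, and kinases, phosphatases and signalling 24.3% of 74. Energy metabolism had 3.61% of 83, and ion channels and pumps 5.56% of 18. Median inclusion ran from 19.6% for RNA-binding and splicing factors, of which 39.7% were low, to 95.4% for energy metabolism, against 93.94% over all members. Members of a gene share reads, so single genes weigh on these values. Neb held 8 of the 21 intermediate members of the sarcomere and Z-disc list.

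**Figure D3:**
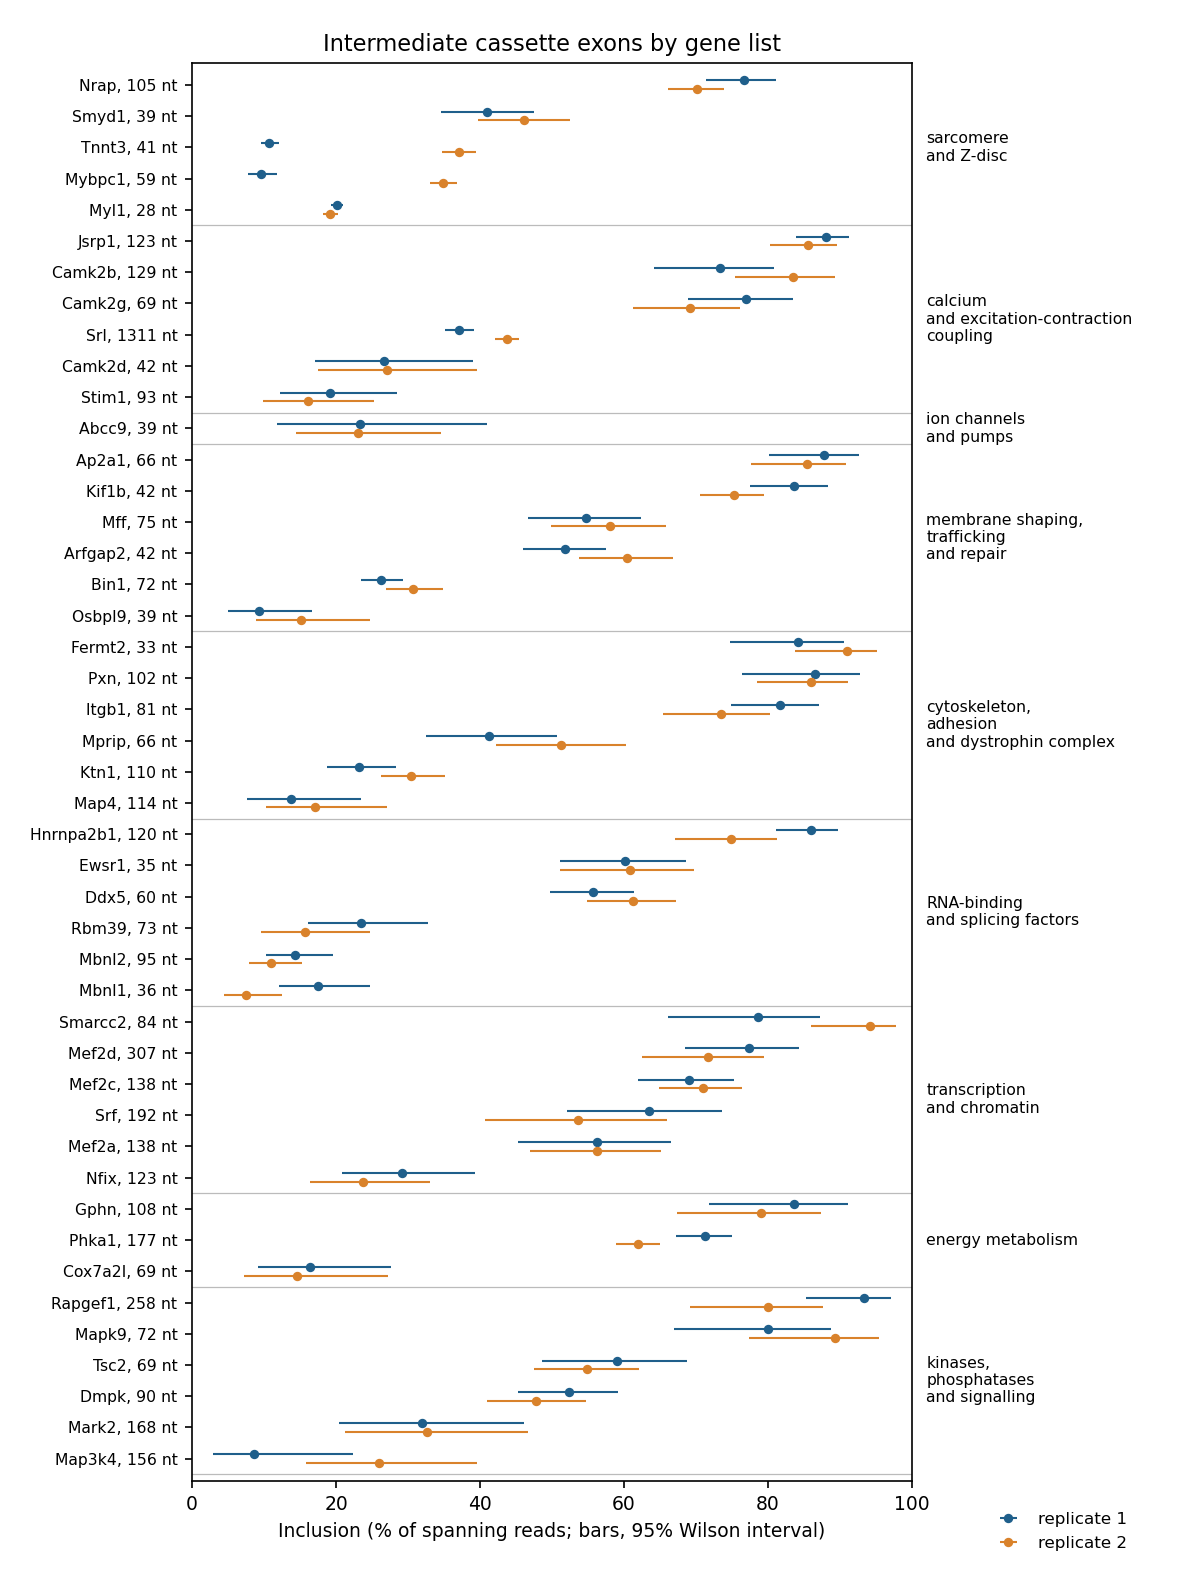
Inclusion (horizontal axis, % of spanning reads) of the deepest intermediate exons of each gene list, at most 6 per list and 1 per gene, with points for replicate 1 (blue) and replicate 2 (orange) and bars for the 95% Wilson interval, which covers counting error only. The intervals of the libraries overlap for most exons, and Tnnt3 and Mybpc1 stand apart with 10.7% against 37.1% and 9.60% against 34.9%. Those of Srl, at 37.1% against 43.7%, do not overlap either.

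Among sarcomere genes, the 105-nt exon of Nrap, a nebulin-related anchoring protein, was held by 223 of 291 reads (76.6%) and 362 of 516 (70.2%), while the other 18 members of that gene were high. The 39-nt exon of Smyd1, a muscle methyltransferase needed for sarcomere assembly, was held by 90 of 220 (40.9%) and 105 of 228 (46.1%). These library differences did not pass the test (adjusted p = 1 for each, Fisher's exact test over 36140 exons).

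The calcium genes showed several intermediate exons of kinases. Camk2b, a calcium/calmodulin-dependent kinase, had 3 intermediate exons of 114 and 129 nt at 62.2% to 73.3% in replicate 1 and 79.4% to 83.5% in replicate 2, on 98 to 109 reads. Its paralogue Camk2g had 3 as well: a 69-nt exon at 77.0% and 69.2%, a 63-nt exon at 27.0% and 22.6%, and a 33-nt exon at 17.5% and 19.2%, on 126 and 146 reads. The 42-nt exon of Camk2d was held by 16 of 60 (26.7%) and 16 of 59 (27.1%). Stim1, the calcium sensor of store-operated entry, had a 93-nt exon at 17 of 89 (19.1%) and 14 of 87 (16.1%). Jsrp1, a junctional protein of the sarcoplasmic reticulum, stood at 88.1% of 302 and 85.6% of 215 for its 123-nt exon. All of these intervals overlapped between the libraries. Those of the Srl exon, the deepest intermediate one of this list, did not (35.1 to 39.2 and 42.1 to 45.4), and it is described with the calls below.

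Among membrane genes, Bin1, which shapes the transverse tubules, had 6 members: its 72-nt exon was held by 221 of 841 (26.3%) and 157 of 511 (30.7%), and the other 5 were at 0.737% or less. The 42-nt exon of Arfgap2, a regulator of vesicle coats, was held by 149 of 288 (51.7%) and 130 of 215 (60.5%). Mff, which recruits the fission machinery to mitochondria, had a 75-nt exon at 82 of 150 (54.7%) and 83 of 143 (58.0%). Opa1, which fuses inner mitochondrial membranes, had a 54-nt exon at 37.3% of 67 and 41.5% of 123 and a 111-nt exon at 53.7% and 55.3% of the same reads. In Kif1b, a kinesin motor, a 42-nt exon stood at 83.6% of 183 and 75.3% of 364. Dnm2, a dynamin that cuts membrane necks, had 3 intermediate exons on 29 and 49 reads, among them a 30-nt exon at 44.8% and 55.1%.

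Among adhesion and cytoskeletal genes, Ktn1, or kinectin, had 5 intermediate members. Its 72-nt exon stood at 82.2% of 286 and 75.9% of 406 reads, its 87-nt exon at 62.5% of 283 and 67.5% of 406, and its 84-nt exon at 15.3% and 14.5%. Itgb1, the beta-1 integrin, had an 81-nt exon at 81.7% of 153 and 73.5% of 132, and Mprip, a regulator of myosin phosphatase, a 66-nt exon at 41.3% of 109 and 51.3% of 115. Tln2, a talin of the muscle attachment, had a 120-nt exon at 32 of 38 (84.2%) and 41 of 56 (73.2%). None of these library differences passed the test (Fisher's exact test, adjusted p = 1 for each).

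Splicing factors had partial exons of their own. Mbnl1, the muscleblind protein that drives adult splicing, had 12 members: the 54-nt exon, known to place the protein in the nucleus, was held by 8 of 123 (6.50%) and 7 of 161 (4.35%), the 36-nt exon by 24 of 137 (17.5%) and 13 of 172 (7.56%), and the 95-nt exon by 108 of 137 (78.8%) and 124 of 172 (72.1%). In Mbnl2 the 54-nt exon stood at 18 of 217 (8.29%) and 17 of 281 (6.05%), and the 95-nt exon at 31 of 217 (14.3%) and 31 of 281 (11.0%). Hnrnpa2b1 had a 36-nt exon, which separates its A2 and B1 forms, at 38 of 223 (17.0%) and 21 of 123 (17.1%). Ewsr1 had a 35-nt exon at 60.2% of 118 and 60.8% of 102, but 33 and 30 of the other reads had both ends within 5 nt and 10 and 7 were clean skips. Fxr1, an RNA-binding protein of muscle, had 4 members, all high, with the 81-nt exon at 97.5% of 158 and 98.1% of 158 and the 92-nt exon at 93.6% of 156 and 91.6% of 155.

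Among kinase, metabolic and channel genes, Phka1, a regulatory subunit of phosphorylase kinase, had a 177-nt exon at 364 of 511 (71.2%) and 581 of 937 (62.0%), which did not pass the test (Fisher's exact test, adjusted p = 0.244). Dmpk, the kinase gene whose repeat expansion causes myotonic dystrophy in humans, had a 90-nt exon at 102 of 195 (52.3%) and 95 of 199 (47.7%). Of the other Dmpk reads, 80 and 96 had both ends within 5 nt and 0 and 2 were clean skips, so most of this is a choice of ends. Tsc2, a brake on mTOR signalling, had a 69-nt exon at 52 of 88 (59.1%) and 95 of 173 (54.9%). In Abcc9, a subunit of the ATP-sensitive potassium channel and the only intermediate member of the channel list, a 39-nt exon stood at 7 of 30 (23.3%) and 15 of 65 (23.1%).

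Of 68 genes listed for known muscle or tissue-specific exons, 51 had at least 1 member and 17 had none, among them Ttn, Ldb3, Dmd, Insr and Capn3. Their 222 members were 87 high, 64 intermediate and 71 low. Ryr1, the calcium release channel, had members of 30 and 27 nt at 0 of 122 and 0 of 337 reads each, which allows up to 2.46% and 0.890%. Clcn1, the muscle chloride channel, had a 79-nt exon, the one at chr6:42293444-42293522, at 2 of 56 (3.57%) and 0 of 26, where a count of 0 allows up to 11.5%. Tnnt1, the slow troponin T, had a 22-nt exon at 13 of 24 (54.2%) and 23 of 60 (38.3%).

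Reads long enough to cross several exons showed how exons of a gene were combined. Pairs of intermediate exons that do not overlap were counted where at least 20 reads in each library spanned both, which gave 583 pairs in 169 genes. In 18 pairs, 1 per gene, at least 90% of these reads in each library held exactly 1 of the pair. In 116 pairs of 28 genes, at least 90% held both or neither. The other 449 pairs lay between. Pairs of a gene share reads, and the genes named for their pairs were picked from these counts.

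Several of the pairs of which a read held 1 are known as mutually exclusive exons. In Tnnt3, the fast troponin T, 2317 reads of replicate 1 spanned both 41-nt exons: 2011 held the upstream exon alone, 261 the downstream exon alone, 2 both and 43 neither. Replicate 2 had 1560 such reads, with 927, 591, 4 and 38. The 3 MEF2 genes, transcription factors of muscle differentiation, all appeared. In Mef2a every one of 80 and 112 reads held exactly 1 exon, with the 138-nt exon in 45 and 63 and the 132-nt exon in 35 and 49, so that both libraries gave 56.25% and 43.75%. In Mef2d the 138-nt exon was alone in 14 of 94 and 13 of 87 reads and the 135-nt exon in 79 and 74. In Mef2c the 144-nt exon was alone in 45 of 180 and 53 of 234 reads and the 138-nt exon in 125 and 166.

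Mapk9, the kinase JNK2, held the upstream exon alone in 9 of 50 and 3 of 46 reads and the downstream exon alone in 40 and 42. P4ha1, a collagen prolyl hydroxylase, held the upstream exon alone in 18 of 40 and 10 of 28 and the downstream exon alone in 22 and 18. In Acp1, a low molecular weight phosphatase, 46 of 76 and 25 of 45 reads held the upstream exon alone and 30 and 20 the downstream one. Itga7, the laminin receptor integrin of muscle, held the upstream exon alone in 7 of 50 and 8 of 58 and the downstream exon alone in 42 and 48. Ide, Ate1, Flot2, Calu, P4ha2, Plpp1, Eno1, Dnm2, Slc8a3 and Myl1 completed the 18.

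**Figure D4:**
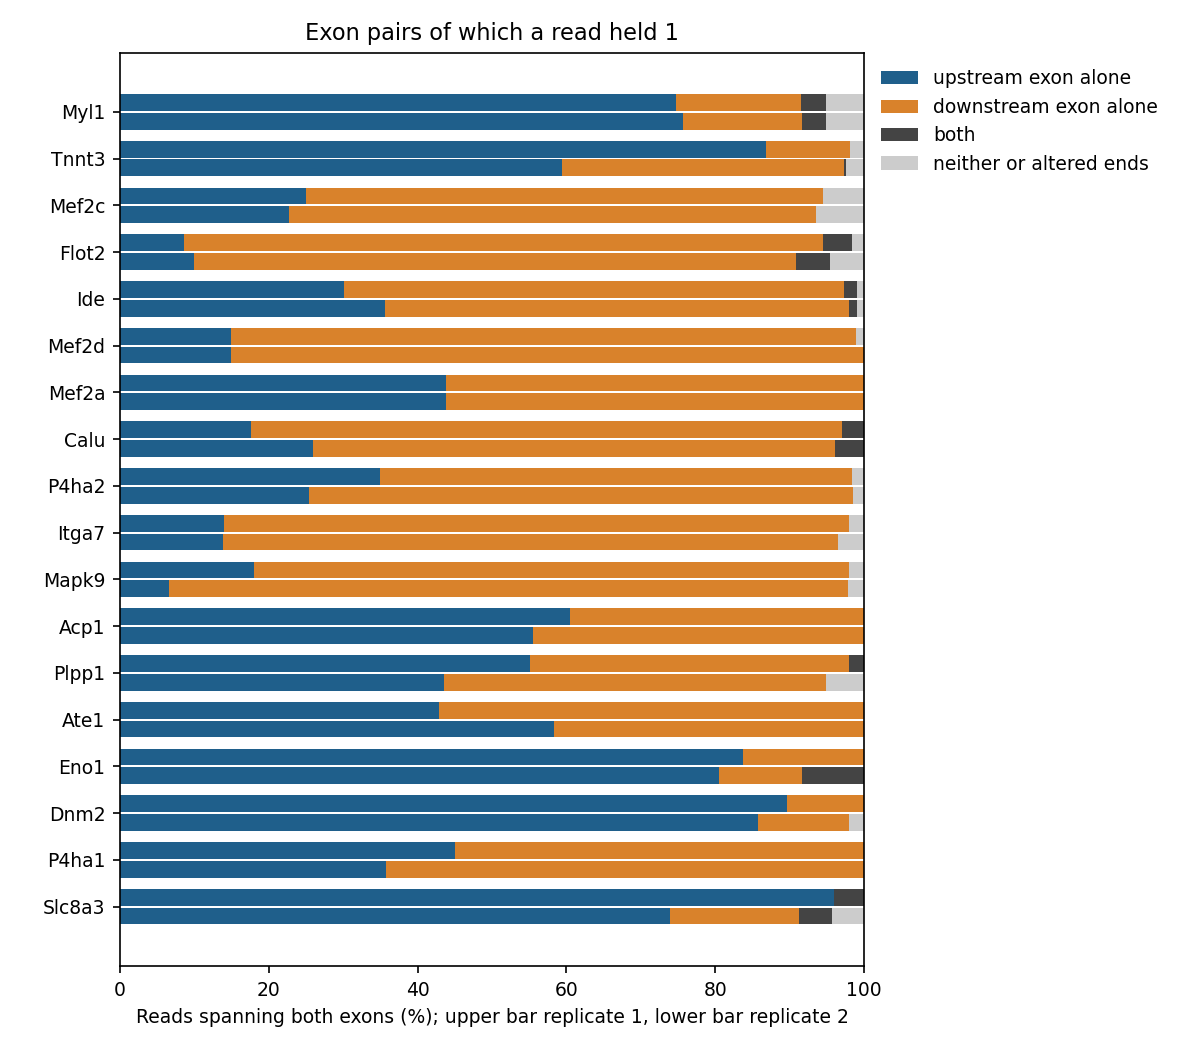
Share of reads spanning both exons of a pair (horizontal axis, %) that held the upstream exon alone, the downstream exon alone, both, or neither or a version with altered ends, for the 18 pairs of which at least 90% of reads held 1; upper bars are replicate 1 and lower bars replicate 2. Both exons together are a small share of the reads throughout, though not always small beside the rarer exon alone. Tnnt3 moves from 261 of 2317 reads with the downstream exon alone to 591 of 1560.

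The exons of 10 of the 18 pairs had the same length, and without gaps their sequences were alike at 43.9% to 68.4% of positions. The Tnnt3 exons were the least alike with 18 of 41 bases and the Dnm2 exons the most alike. The Mapk9 exons shared 47 of 72 bases (65.3%), the P4ha1 exons 42 of 71 (59.2%) and the Acp1 exons 64 of 114 (56.1%). Outside the 18, 24 pairs had equal lengths. Of these, 15 were in Neb, with 76.3% to 87.1% identity between repeats, and 1 in Camk2b with 83.7%, and the remaining 8 lay between 18.2% and 37.6%.

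Exons held together formed blocks. Lrrfip1 had 42 such pairs and Ttc3 37, which are many pairs from few exons. In Tsg101, which sorts cargo in endosomes, the 92-nt and 67-nt exons were both held by 121 of 159 and 83 of 102 reads and both missing in 38 and 18, with 0 and 1 read holding only 1 of them. In Camk2b the pair of 129-nt exons was held together by 70 of 101 and 87 of 107 reads and absent from 28 and 18. In Smtn, or smoothelin, the 63-nt and 165-nt exons were both held by 11 of 99 and 14 of 81 reads, and in the other 88 and 67 reads both were missing.

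Nebulin, encoded by Neb, sets the length of thin filaments and is built of near-identical repeats. It had 13 members of 93 to 111 nt, 8 of them intermediate. The exon at chr2:52151364-52151456 was held by 154 of 183 (84.2%) and 198 of 231 (85.7%) reads, while the others of the intermediate class ran from 4.42% to 26.3% in replicate 1 and from 15.7% to 41.9% in replicate 2. Some of the rarer exons were nested in commoner ones. The exon at chr2:52157291-52157383 was held by 8 of 181 and 36 of 230 reads, and all of those also held the exons at chr2:52157832-52157924, chr2:52151364-52151456 and chr2:52153056-52153148. Of the 24 and 70 reads with the exon at chr2:52157832-52157924, all held chr2:52151364-52151456 too. Nesting was not general: the exon at chr2:52150537-52150629 was held together with that exon by 40 and 83 reads and without it by 5 and 6. The repeats are alike enough that the alignment could place an exon at a neighbouring repeat, which was not tested.

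The libraries were then compared exon by exon, with Fisher's exact test on exact-exon and other reads, adjusted over all 36140 internal exons with the same depth. A call means an adjusted p below 0.05. Over all internal exons 50 were called (0.138%), of which 16 had more inclusion in replicate 1 (0.0443%) and 34 the other way (0.0941%), and 12 of them differed by 10 points or more (0.0332%). Among members 18 were called (0.302%), with more inclusion in replicate 1 for 4 and in replicate 2 for 14, and 9 differed by 10 points or more. At an unadjusted p below 0.05, there were 159 members (2.67%) and 507 of all internal exons (1.40%). The 18 lay in 12 genes and had 144 to 51293 reads in the shallower library, while the median member had 57 and 53 spanning reads. Of the 577 members with at least 200 reads in the shallower library, 14 were called, including 9 of the 55 intermediate ones. The share over all internal exons at that depth is not given here. In the intermediate class, the median difference between libraries was 6.37 points, and 1 in 10 exons exceeded 17.5 points. These differences include counting error at such depths. Over the 1620 exons used to estimate it, the spread between the libraries was on average larger than counting error (mean chi-square 2.16). When a shared extra variance was estimated from these exons and added, an alternative chosen after seeing the data, 2 calls were left, both in Tnnt3.

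**Figure D5:**
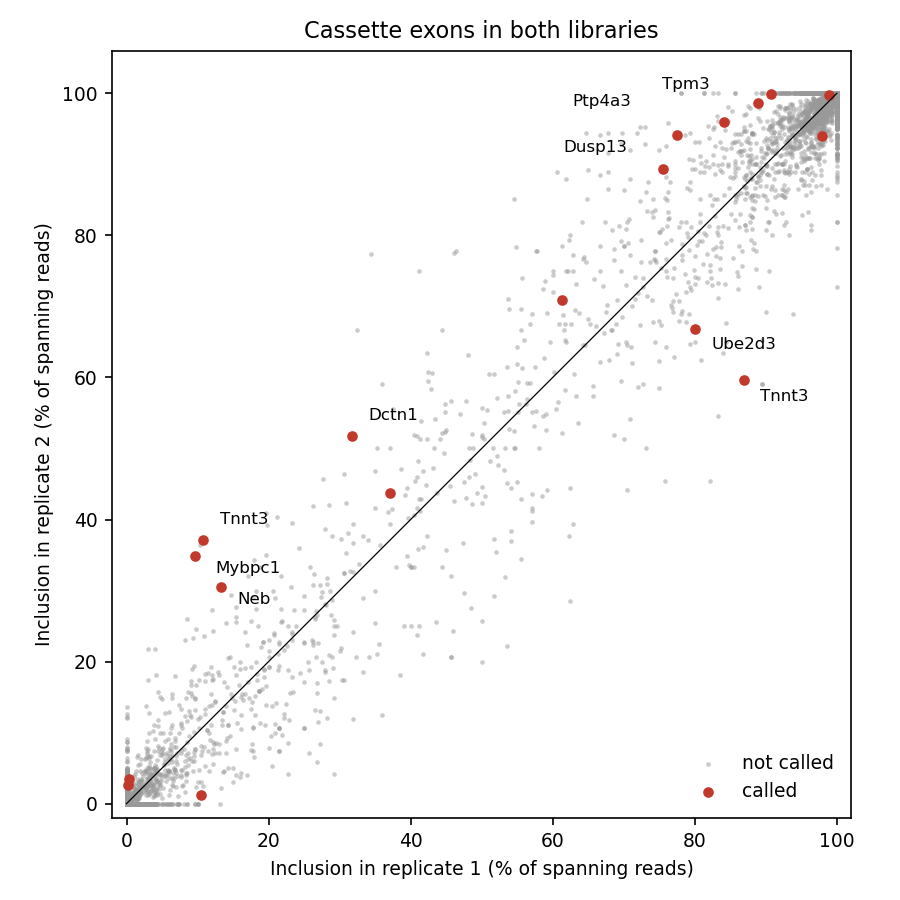
Inclusion in replicate 1 (horizontal axis) against replicate 2 (vertical axis), in % of spanning reads, for 5959 cassette exons; red points are called by Fisher's exact test and those that differ by 10 points or more carry the gene name. The called exons farthest from the diagonal are those of Tnnt3, at 86.9% against 59.7% and at 10.7% against 37.1%.

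Tnnt3 differed most among the called genes. Its upstream 41-nt exon was held by 2013 of 2317 reads in replicate 1 (86.9%; Wilson interval 85.4 to 88.2) and 931 of 1560 in replicate 2 (59.7%; 57.2 to 62.1), a difference of 27.2 points (Fisher's exact test, adjusted p = 4.42e-79; 0.0123 with the extra variance). The downstream exon moved the other way, from 264 of 2456 (10.7%; 9.59 to 12.0) to 595 of 1605 (37.1%; 34.7 to 39.5; Fisher's exact test, adjusted p = 3.76e-84; 0.0123 with the extra variance). The exons exclude each other on the reads above, so this is a single shift seen from both sides. The library with more downstream exon was also the one with more Myh7; the part of fibre makeup in the shift was not tested. These calls held in each of the planned ways of counting.

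Mybpc1, the slow form of myosin-binding protein C, had 4 members and all were called. The 59-nt exon was held by 81 of 844 reads (9.60%; 7.79 to 11.8) in replicate 1 and 834 of 2391 (34.9%; 33.0 to 36.8) in replicate 2 (Fisher's exact test, adjusted p = 1.77e-47). The 42-nt exon went from 463 of 755 (61.3%) to 1541 of 2172 (70.9%), and the 54-nt exon from 2 of 822 (0.243%) to 61 of 2360 (2.58%). The 43-nt exon went the other way, from 826 of 844 (97.9%) to 2249 of 2392 (94.0%). On reads that spanned both, 63 reads of replicate 1 held the 59-nt and the 42-nt exon and 3 held the 59-nt exon alone, and in replicate 2 these were 663 and 74. With the extra variance the 59-nt exon had an adjusted p of 0.194 and was no longer called.

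Dctn1, the microtubule-binding subunit of dynactin, had its 21-nt exon in 96 of 303 (31.7%; 26.7 to 37.1) and 254 of 491 (51.7%; 47.3 to 56.1) reads (Fisher's exact test, adjusted p = 4.69e-05). In Neb, the exon at chr2:52157832-52157924 was held by 24 of 181 (13.3%; 9.07 to 19.0) and 70 of 230 (30.4%; 24.8 to 36.7; Fisher's exact test, adjusted p = 0.0260). Of the 13 Neb members, 11 were higher in replicate 2 and 2 in replicate 1, but only 1 was called. They share reads and are partly nested, so this count is not separate evidence for the call. Without reads on models that match only part of a transcript the Neb exon had an adjusted p of 1. All reads without this exon were clean skips (157 and 160), so counting clean skips alone left its counts unchanged. Its adjusted p there was 0.0804 (Fisher's exact test) because the adjustment ran over a different set of exons. Srl, or sarcalumenin, a calcium-binding glycoprotein of the sarcoplasmic reticulum, has a 1311-nt coding exon that was held by 789 of 2126 (37.1%) and 1484 of 3394 (43.7%; Fisher's exact test, adjusted p = 0.00140). All 3 were higher in replicate 2.

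Further differences were called in Tpm3, Myom1, Ube2d3 and Dusp13. Tpm3, a tropomyosin of slow fibres and of the cytoskeleton, had 3 calls among 4 members. Its 76-nt exons were held by 15 of 144 (10.4%) and 7 of 590 (1.19%) for the upstream one and by 128 of 144 (88.9%) and 582 of 590 (98.6%) for the downstream one, and its 79-nt exon by 122 of 145 (84.1%) and 566 of 590 (95.9%). Myom1, a crosslinker of the M-band, had a 294-nt exon at 2 of 624 (0.321%) and 28 of 813 (3.44%; Fisher's exact test, adjusted p = 0.0140). Without reads on models that match only part of a transcript, its adjusted p was 0.592. Ube2d3, a ubiquitin-conjugating enzyme, went from 373 of 466 (80.0%) to 214 of 320 (66.9%) for its 50-nt exon, and Dusp13, a dual-specificity phosphatase, from 244 of 323 (75.5%) to 201 of 225 (89.3%) for its 95-nt exon. Among clean skips alone neither was called (adjusted p = 0.131 each, Fisher's exact test). That count left out 2 and 4 reads for Ube2d3 and 12 and 5 for Dusp13, and its adjustment ran over a different set of exons. The Ube2d3 counts therefore hardly changed. Without reads on partly matching models Dusp13 had an adjusted p of 0.0855 (Fisher's exact test).

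In 3 called genes the reads without the exact exon had not skipped it. The 79-nt exon of Pygm, the muscle glycogen phosphorylase, was held by 2366 of 2606 (90.8%) and 2022 of 2024 (99.9%), with 239 reads of replicate 1 and 0 of replicate 2 inside a longer exon and 1 and 0 clean skips. In Ckm the 212-nt exon was held by 64229 of 64967 (98.9%) and 51177 of 51293 (99.8%), with 696 and 74 reads inside a longer exon and 15 and 19 clean skips. In Ptp4a3, a small tyrosine phosphatase, the 899-nt exon was held by 447 of 577 (77.5%) and 302 of 321 (94.1%), with 124 and 15 reads inside a longer exon and 2 and 2 clean skips. Counted among clean skips alone, these 3 were no longer called (adjusted p = 1 each, Fisher's exact test). The reads behind their calls held the exon inside a longer exon and were more frequent in replicate 1. Without reads on partly matching models none of the 3 was called either. For reads reaching the annotated neighbouring exons only Pygm was called (adjusted p = 7.15e-55, Fisher's exact test). Whether these reads are full splice forms was not tested.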

How the data were processed

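Long-read RNA-seq of gastrocnemius was used from 2 libraries. Each deposited table lists, per transcript model, its raw read count and, per the file headers, its exon number and length; the deposited annotations give each model's position on mm10 beside GENCODE M21, with added models named by TALON. The labels name mm10. For the aligner, the filters and the versions, the sources used here give no name. The 141862 annotated transcripts had the same structure in both annotations and in GENCODE M21.

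Counts of multi-exon models of annotated genes were summed per exon and library as described in the results, with 36140 internal exons, 5959 of them cassette exons, at 20 or more spanning reads. Reads of amplified cDNA are not independent molecules, so Wilson 95% intervals and the limits set by a count of 0 (3 reads of the total) cover counting error only. Libraries were compared by a 2-sided Fisher's exact test per exon with Benjamini-Hochberg adjustment over all 36140, which knows no spread between libraries. A shared extra variance, moment-estimated from 1620 exons, was added after seeing the data. Exons named in the text were the deepest intermediate, high and low ones, the largest called differences, the deepest of each gene list, and members of genes with known exons; others are marked. Some exons and sequences that these rules name are not reported here. Members and lists were chosen with earlier results of these data known. The procedure was tested on simulated data. Alternatives were exon ends within 5 nt, other classes of model and of read, at least 50 reads, other definitions of a cassette exon, and each library alone. Sequences came from GENCODE M21 transcripts. Python 3.11.15, pandas 2.3.3, scipy 1.17.1 and statsmodels 0.14.6 were used.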

Additional observations from a re-analysis of the deposited data

How the results depend on the processing

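The bimodal split of the cassette exons kept its order under the alternatives run. Of 5959 exons with a median inclusion of 93.94%, the median was 95.24% with ends within 5 nt allowed, 94.12% without reads on models that match only part of a transcript, 98.61% with clean skips alone as the not-included reads, 94.87% for reads reaching the annotated neighbouring exons, 96.57% with 1 exon per overlapping group, and 93.1% to 94.2% in each library alone. At 50 or more reads, 2774 exons remained with a median of 96.13%, of which 1541 were high, 370 intermediate and 863 low. With protein-coding transcripts alone defining the exons there were 3452, with a median of 93.73%, 1865 high and 853 low. Leaving out models classed as Genomic touched 7 cassette exons and moved none of these values. Calls were more sensitive: those higher in replicate 2 numbered 8 without partly matching models and 9 among clean skips, where 5 calls exceeded 10 points, against 14 and 9. Among clean skips the adjustment also ran over a different set of exons, and the Neb exon lost its call with unchanged counts. With the extra variance 1 call in each direction was left, and both of these 2 exceeded 10 points. Differences that changed sign (replicate 1 minus replicate 2, in points) were Ptp4a3 at 1.73 without partly matching models, 0.213 among clean skips and 1.75 for reads reaching the neighbours, Ckm at 0.0211, 0.0138 and 0.0211 in the same order, and Pygm at 0.0620 and Aldoa at 7.12 without partly matching models; except for Aldoa (adjusted p = 4.33e-45, Fisher's exact test), none of these was called. The causes were not tested. No paired analysis was possible because the series has 1 group. With 2 libraries and a median of 57 and 53 reads per exon, a typical exon can show only large differences, and no called exon had under 144 reads in its shallower library.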
